A study of Homo sapiens with 8 samples.

Results

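MEF2 factors and class IIa histone deacetylases (HDACs) were followed in human T-cell acute lymphoblastic leukemia (T-ALL) cells in which LDB1 had been knocked down. The 7 genes, MEF2A, MEF2C, MEF2D, HDAC4, HDAC5, HDAC7 and HDAC9, were chosen by name from the 64252 genes of each count table, with their values in these libraries already known. The choice used the level of MEF2C in each cell line, so levels in the lines are given as a description with no test. No threshold on the change after LDB1 knockdown entered the choice, but those changes were known too, and the p-values below are therefore not independent evidence about the family.

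RNA was sequenced from 2 T-ALL lines, 6T-CEM, a derivative of CCRF-CEM, and J.gamma1, a derivative of Jurkat known for its loss of phospholipase C gamma. Both lines carried a lentiviral short hairpin RNA (shRNA), either a control hairpin (sh-NC) or a hairpin against LDB1 (sh-LDB1), and the infected cells were selected in puromycin. LDB1 is an adaptor protein that holds LIM-domain proteins and DNA-binding factors in complexes at enhancers and promoters. Each of the 4 groups had 2 libraries, 8 in all, and each line stands for 1 cell line only. The study's text does not say which of its 3 LDB1 hairpins the sequenced cells carried, nor that the replicates came from separate cultures, so the p-values measure the spread between these libraries, which may be technical.

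MEF2 proteins are transcription factors that bind an A/T-rich sequence and recruit either coactivators or repressors. Class IIa HDACs have little deacetylase activity of their own, bind MEF2 proteins through their N-terminal part, and bring in the NCOR complex with HDAC3, which represses the MEF2 target. Calcium-dependent kinases, protein kinase D and salt-inducible kinases phosphorylate class IIa HDACs, after which 14-3-3 proteins carry them out of the nucleus and MEF2 targets can be transcribed. In T cells HDAC7 represses NR4A1 in thymocytes, and MEF2C is known as an oncogene of immature T-ALL, where NKX2-5 can activate it.

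Library totals lay between 26160492 and 30604977 counts. LDB1 itself was at 107 and 111 counts-per-million (CPM) in the sh-NC libraries of 6T-CEM and at 37.0 and 35.0 CPM with sh-LDB1. In J.gamma1 it was at 60.1 and 58.8 CPM with sh-NC and at 33.2 and 30.7 CPM with sh-LDB1. LDB1 transcripts thus stood at 33.1% of control after knockdown in 6T-CEM and at 54.0% in J.gamma1. These log2 fold changes, -1.60 and -0.89, differed by 0.70 ± 0.095 (SE, edgeR interaction, adjusted p = 0.00024). All 9 T-lineage markers were detected in every group. Their summed level was between 1688 and 1775 CPM in 6T-CEM sh-NC libraries and between 2234 and 2241 CPM with sh-LDB1. In J.gamma1 it was 2226 and 2228 CPM with sh-NC and between 3022 and 3030 CPM with sh-LDB1. Single markers did not all follow the sum. By the knockdown tests below 6 were higher and 1, CD5, lower in 6T-CEM, where 15.1% of all genes tested were higher and 16.2% lower. In J.gamma1 5 were higher and 2, CD3D and LCK, lower, beside 25.0% and 26.5% of all genes. There CD3E rose from 462 to 887 CPM and PTPRC from 403 to 799 CPM, while LCK fell from 759 to 581 CPM (means of 2 libraries).

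MEF2C was the member that set the lines apart. In 6T-CEM the sh-NC libraries held 3474 and 3824 counts, or 134 and 142 CPM. In J.gamma1 the sh-NC libraries held 0 and 3 counts and the sh-LDB1 libraries 0 and 2 counts, all at or under the floor of 3 counts per library that a count of 0 allows. Summed over the control libraries, 7298 counts stood against 3, a ratio of 2909. The 95% exact binomial interval of this ratio, from 995 to 14107, describes the counting error of so few counts and is no test of the lines. MEF2C lies on the minus strand of chromosome 5, from 88717117 to 88904257 of GRCh38, and its reference transcript has 11 exons. Its antisense gene MEF2C-AS1 held between 13 and 33 counts in 6T-CEM and 0 in all J.gamma1 libraries.

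Because MEF2C is also expressed in B-lineage, myeloid and muscle cells, their markers were summed beside it. The 6 B-lineage markers summed to between 34.0 and 34.6 CPM in the control libraries of 6T-CEM and to between 43.0 and 46.4 CPM with sh-LDB1, with MS4A1 and EBF1 at 0 in both groups. In J.gamma1, where MEF2C was near 0, the same sum was higher, between 72.9 and 74.4 CPM with sh-NC and between 84.4 and 84.6 CPM with sh-LDB1. CD79A alone made up most of these sums, at 23.4 and 23.2 CPM in control libraries of 6T-CEM and 36.9 and 40.8 CPM with sh-LDB1, whereas CD79B went from 7.66 and 8.20 CPM to 4.63 and 3.32 CPM there. In J.gamma1 CD79A was at 65.3 and 66.7 CPM with sh-NC and at 75.6 and 75.5 CPM with sh-LDB1. The 6 myeloid markers summed to at most 2.95 CPM in any 6T-CEM library and to between 9.57 and 12.3 CPM in J.gamma1. CEBPA alone gave most of the J.gamma1 sum, at a mean of 10.4 CPM with sh-NC and 9.57 CPM with sh-LDB1. MPO went the other way, at 0 in J.gamma1 and at means of 0.321 CPM with sh-NC and 1.21 CPM with sh-LDB1 in 6T-CEM. The 4 muscle markers were at or under the floor in 6T-CEM and never summed to more than 0.349 CPM in any library. The 4 natural killer markers summed to between 11.3 and 12.8 CPM in 6T-CEM with sh-NC and to between 34.0 and 34.7 CPM with sh-LDB1, against between 3.42 and 4.69 CPM and between 7.60 and 8.50 CPM in J.gamma1. In 6T-CEM NKG7 gave nearly all of this sum, at 12.7 and 11.2 CPM with sh-NC and 34.5 and 33.9 CPM with sh-LDB1, while KLRD1 and NCR1 were at 0.

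The other MEF2 factors were at like levels in the 2 lines. MEF2A was at 82.8 ± 5.5 CPM in 6T-CEM and at 72.1 ± 1.5 CPM in J.gamma1 (SD, n = 2 sh-NC libraries each), and MEF2D at 45.2 ± 1.6 and 45.5 ± 3.4 CPM, with overlapping libraries. The HDACs were spread more widely. HDAC9 was at 36.7 ± 4.7 CPM in J.gamma1 and at 3.14 ± 0.72 CPM in 6T-CEM, 11.7-fold apart, and HDAC5 at 31.9 ± 2.6 and 7.46 ± 0.22 CPM, 4.27-fold apart. HDAC4 was 1.33-fold higher in J.gamma1 and HDAC7 1.49-fold higher in 6T-CEM. In the control cells J.gamma1, with MEF2C at or under the floor, held the higher levels of HDAC4, HDAC5 and HDAC9.

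**Figure D1:**
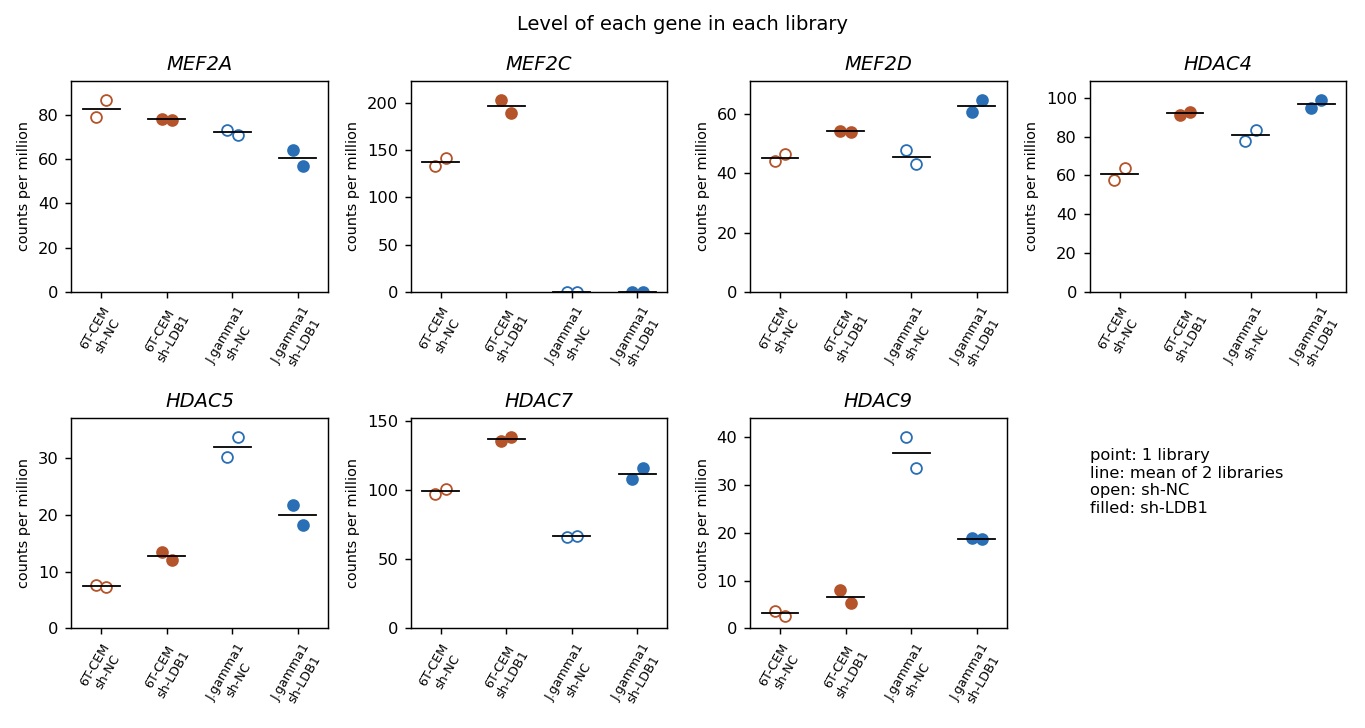
Level of each of the 7 genes in CPM (y axis, linear from 0) in the 8 libraries; each point is 1 library, open for sh-NC and filled for sh-LDB1, and each line is the mean of 2 libraries. MEF2C lies at 134 to 203 CPM in 6T-CEM and near 0 in J.gamma1, and HDAC5 and HDAC9 lie higher in J.gamma1 and move in opposite directions in the 2 lines.

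Levels of different genes were compared per kilobase of annotated exon. In 6T-CEM control cells the order was MEF2C (11.7 ± 0.49 CPM per kb, SD, n = 2), MEF2A (11.6), HDAC7 (9.97), MEF2D (7.12), HDAC4 (4.28), HDAC5 (0.980) and HDAC9 (0.182). Only MEF2C and MEF2A, the first neighbours, overlapped between libraries. In J.gamma1 control cells the order was MEF2A (10.1), MEF2D (7.16), HDAC7 (6.70), HDAC4 (5.68), HDAC5 (4.18), HDAC9 (2.12) and MEF2C (0.00404), with no overlap between neighbours. With the length of the longest transcript in place of all exons, HDAC7 passed MEF2A in 6T-CEM, and HDAC7 and HDAC4 passed MEF2D in J.gamma1.

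After LDB1 knockdown HDAC7, the main class IIa HDAC of thymocytes, stood second in 6T-CEM and first in J.gamma1 on this scale. Among the 4 class IIa HDACs it made up 65.0% and 64.4% of the summed level per kb in the 2 sh-NC libraries of 6T-CEM and 61.1% and 62.4% with sh-LDB1. In J.gamma1 its share was 36.3% and 35.5% in control libraries against 50.5% and 52.8% after knockdown. The shares of HDAC5 and HDAC9 in J.gamma1 went the other way, from 21.4% and 23.3% to 13.3% and 10.8% for HDAC5, and from 12.6% and 10.2% to 5.06% and 4.87% for HDAC9.

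**Figure D2:**
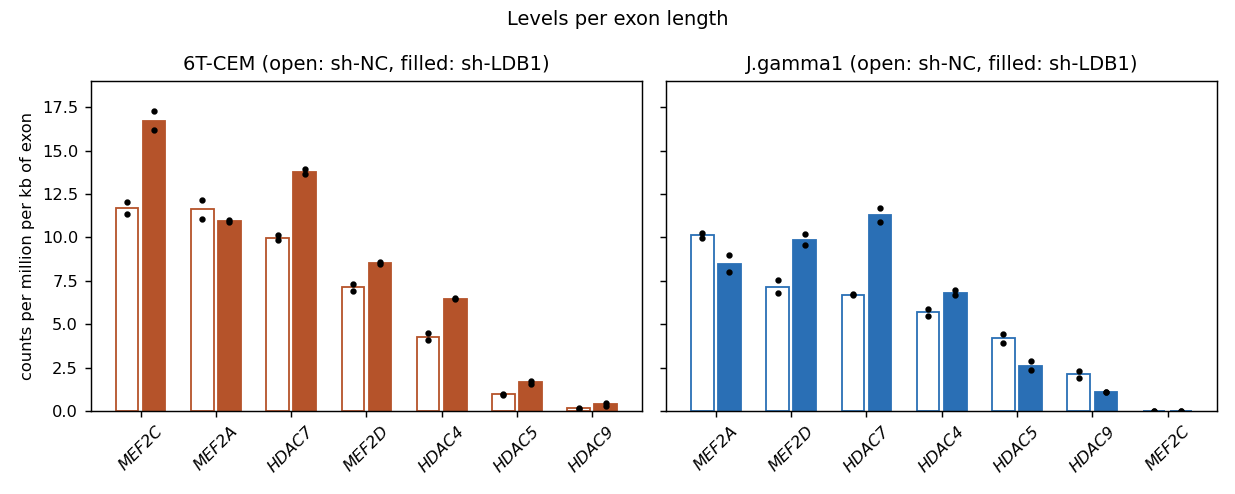
Level of each gene per length, in CPM per kilobase of annotated exon (y axis, from 0), ordered by the sh-NC mean of each line; bars are means of 2 libraries, dots are single libraries, open bars sh-NC and filled bars sh-LDB1. HDAC7 rises to the first place in J.gamma1, and MEF2C leads in 6T-CEM and is last in J.gamma1.

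LDB1 knockdown was followed by higher levels of 6 of the 7 genes in 6T-CEM (edgeR quasi-likelihood test on the 4 libraries of the line, adjusted p under 0.05 over all 16059 genes tested). By the same rule 15.1% of all genes tested were higher and 16.2% lower. The median log2 fold change of the 7 was 0.52, against 0.0027 over all genes. Only HDAC9 also changed by more than 1 on the log2 scale, as did 5.13% of all genes. In J.gamma1 6 genes could be tested, and 3 were higher (MEF2D, HDAC4 and HDAC7) and 3 lower (MEF2A, HDAC5 and HDAC9), where 25.0% of all 17215 genes tested were higher and 26.5% lower. None of the 6 passed a log2 fold change of 1 in J.gamma1, a limit that 13.9% of all genes passed, and their median was 0.01. In these bulk libraries fewer cells that express a gene and less RNA per cell cannot be told apart.

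**Figure D3:**
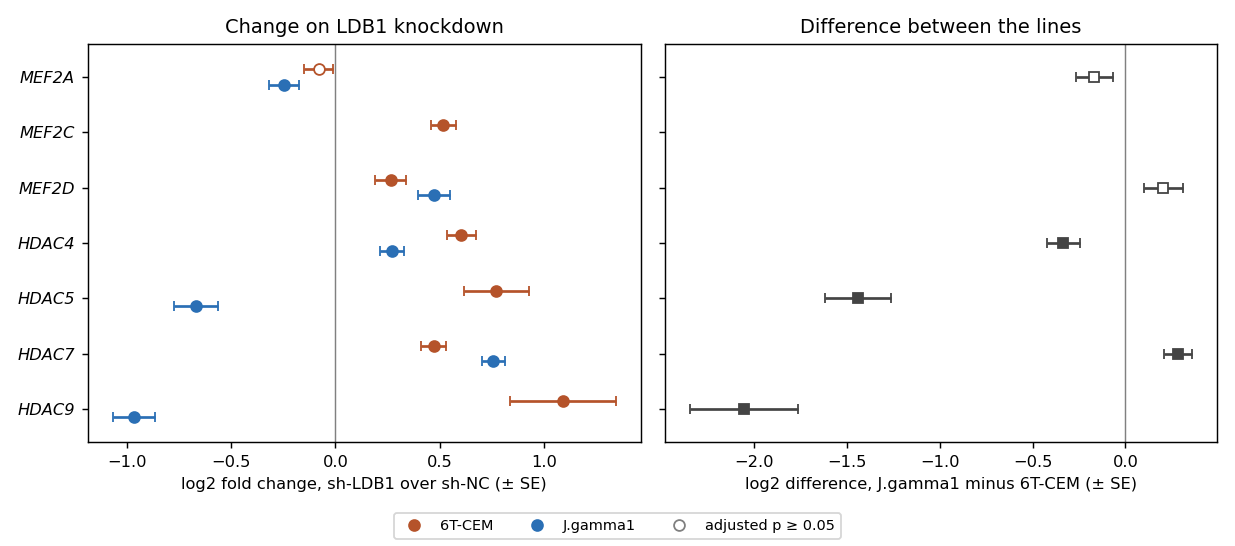
Left, log2 fold change of sh-LDB1 over sh-NC in each line; right, the change in J.gamma1 minus the change in 6T-CEM. Points are estimates from 2 libraries per group, bars are standard errors, and open symbols have an adjusted p of 0.05 or more; MEF2C has no value in J.gamma1. HDAC5 and HDAC9 lie right of 0 in 6T-CEM and left of 0 in J.gamma1.

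MEF2C rose 1.43-fold in 6T-CEM, from 134 and 142 CPM with sh-NC to 203 and 190 CPM with sh-LDB1. That was a log2 fold change of 0.52 ± 0.060 (SE, adjusted p = 1.3e-05). No change can be given for J.gamma1, where the gene was at or under the floor in every library.

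MEF2D, a MEF2 factor expressed in many tissues, rose in both lines. In 6T-CEM it went from 44.1 and 46.4 CPM to 54.4 and 53.9 CPM (a log2 fold change of 0.26 ± 0.076, adjusted p = 0.015). In J.gamma1 it went from 47.9 and 43.1 CPM to 60.7 and 64.7 CPM (0.47 ± 0.077, adjusted p = 0.00043). The call in 6T-CEM was lost without sh-NC replicate 1 (0.23, adjusted p = 0.11), without sh-LDB1 replicate 1 (0.26, adjusted p = 0.062) and without sh-LDB1 replicate 2 (0.27, adjusted p = 0.053). The changes in the 2 lines differed by 0.20 ± 0.10, which did not pass the test (adjusted p = 0.18).

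MEF2A, a MEF2 factor found in most tissues, was lower after knockdown in J.gamma1, where it fell from 73.2 and 71.1 CPM to 64.2 and 56.9 CPM (a log2 fold change of -0.25 ± 0.073, adjusted p = 0.015), a call that was lost without sh-LDB1 replicate 2 (-0.16, adjusted p = 0.13). In 6T-CEM the sh-NC libraries were at 78.9 and 86.7 CPM and the sh-LDB1 libraries at 78.3 and 77.8 CPM, a change of -0.08 ± 0.070 that did not pass (adjusted p = 0.42). The difference between the lines, -0.17 ± 0.10, did not pass either (adjusted p = 0.26). MEF2A lies on the plus strand of chromosome 15, from 99565417 to 99716488, and shares 792 exon bases, 11.1% of its own, with LYSMD4 on the other strand. The strand setting of the counting is not given in the sources used here, so reads from the shared part cannot be assigned. LYSMD4 itself went from 300 and 233 to 113 and 167 counts in J.gamma1 (-0.79 ± 0.21, adjusted p = 0.0094), and its part in the MEF2A value was not tested.

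HDAC4 and HDAC7 rose in both lines. HDAC4, which represses MEF2 targets in many tissues, went from 57.8 and 63.6 CPM to 91.2 and 92.7 CPM in 6T-CEM (a log2 fold change of 0.60 ± 0.071, adjusted p = 1.5e-05). In J.gamma1 it went from 77.7 and 83.4 CPM to 94.8 and 98.7 CPM (0.27 ± 0.057, adjusted p = 0.0024). HDAC7 went from 97.5 and 100.5 CPM to 135 and 138 CPM in 6T-CEM (0.47 ± 0.061, adjusted p = 3.4e-05) and from 66.3 and 66.7 CPM to 108 and 116 CPM in J.gamma1 (0.76 ± 0.057, adjusted p = 1.5e-06). No sh-LDB1 library of either gene overlapped its controls in either line, and each call held when any single library was left out.

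HDAC9, whose gene is itself known as a MEF2 target and whose product feeds back on MEF2 activity, changed in opposite directions. In 6T-CEM the sh-NC libraries held 95 and 71 counts (3.65 and 2.63 CPM) and the sh-LDB1 libraries 236 and 150 counts (8.09 and 5.24 CPM). That was a 2.13-fold rise (a log2 fold change of 1.09 ± 0.25, adjusted p = 0.0051). The call was lost without sh-LDB1 replicate 1 (0.75, adjusted p = 0.10) and without sh-NC replicate 2 (0.87, adjusted p = 0.088). In J.gamma1 HDAC9 fell from 40.0 and 33.4 CPM to 18.8 and 18.6 CPM, to 51.2% of the control level (-0.97 ± 0.10, adjusted p = 1.9e-05), and no single library decided this. After knockdown HDAC9 was still lower in both 6T-CEM libraries than in both J.gamma1 libraries.

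HDAC5, a class IIa HDAC that leaves the nucleus when calcium-dependent kinases phosphorylate it, also changed in opposite directions. It rose in 6T-CEM from 7.62 and 7.31 CPM to 13.4 and 11.99 CPM (a log2 fold change of 0.77 ± 0.15, adjusted p = 0.0015). It fell in J.gamma1 from 30.1 and 33.7 CPM to 21.8 and 18.2 CPM (-0.67 ± 0.11, adjusted p = 0.00037). HDAC5 lies on the minus strand of chromosome 17, from 44076746 to 44123702, and shares 1826 exon bases, 24.0% of its own, with G6PC3, a glucose-6-phosphatase gene on the other strand. In 6T-CEM G6PC3 held 1165 and 1161 counts in control libraries and 1106 and 1103 in knockdown libraries (-0.20 ± 0.080, adjusted p = 0.078), the opposite sign to HDAC5. In J.gamma1 it fell from 1179 and 1153 to 689 and 847 counts (-0.46 ± 0.089, adjusted p = 0.0014), the same sign as HDAC5, and the part of shared reads in the HDAC5 values was not tested. HDAC9 and MEF2D share no exon base with another annotated gene, and for HDAC4 and MEF2C the shared part was at most 3.99% of the exon bases with any one gene. HDAC7 shares 963 bases, 9.70% of its own, with an unnamed gene that held at most 10 counts.

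The difference between the lines was tested directly over all 8 libraries for the 6 genes detected in both, as the change in J.gamma1 minus that in 6T-CEM. LDB1 stood at 33.1% of control in 6T-CEM and at 54.0% in J.gamma1. Cell line and depth of knockdown therefore cannot be told apart in this test. HDAC9 differed by -2.06 ± 0.29 on the log2 scale (adjusted p = 0.00053) and HDAC5 by -1.44 ± 0.18 (adjusted p = 0.00013). HDAC4 differed by -0.33 ± 0.090 (adjusted p = 0.017) and HDAC7 by 0.28 ± 0.077 (adjusted p = 0.018). These 4 of 6 stand beside 24.4% of all 18552 genes that passed this test. The HDAC9 and HDAC5 differences passed whichever library was left out, between -2.32 and -1.71 and between -1.58 and -1.32. Those of HDAC4 and HDAC7 did not. The HDAC4 difference ended without 6T-CEM sh-NC replicate 1 (-0.26, adjusted p = 0.085), 6T-CEM sh-LDB1 replicate 2 (-0.31, adjusted p = 0.052), J.gamma1 sh-NC replicate 2 (-0.29, adjusted p = 0.073) or J.gamma1 sh-LDB1 replicate 1 (-0.31, adjusted p = 0.063). The HDAC7 difference ended without 6T-CEM sh-NC replicate 2 (0.27, adjusted p = 0.057), 6T-CEM sh-LDB1 replicate 1 (0.27, adjusted p = 0.050), J.gamma1 sh-NC replicate 1 (0.28, adjusted p = 0.059), J.gamma1 sh-NC replicate 2 (0.28, adjusted p = 0.054) or J.gamma1 sh-LDB1 replicate 2 (0.23, adjusted p = 0.085).

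The promoters of the 7 genes were searched for the MEF2 core (CTANNNNTAG), which is the element through which MEF2 factors and class IIa HDACs act, and for 4 motifs of factors that work in LDB1 complexes or in T cells. RefSeq windows from 250 bases before to 50 bases after a transcription start (GRCh38.p14) were found for 6 of the 7 genes, 22 windows in all. HDAC5 had no window, and no window of MEF2D or HDAC4 held the start of the reference transcript. For these genes the promoter of the reference transcript was therefore not searched. The MEF2 core was in 2 of the 22 windows, 1 each of MEF2A and HDAC9, and in 2.73% of all 35116 windows. That MEF2A window holds the start of the reference transcript. The HDAC9 window lies at another, distant start, and the HDAC9 windows at the reference start, chr7:18495749, held no MEF2 core. A GATA motif (AGATAA or TGATAA) was in 8 of the 22, of MEF2C, HDAC4, HDAC7 and HDAC9, and in 16.3% of all windows. The E-box CANNTG was in 18 of 22 and in 68.7% of all, the RUNX motif TGTGGT in 1 and in 13.1% of all, and the ETS motif CCGGAA in 2 and in 17.2% of all. Both strands were searched, windows of 1 gene can overlap, and a match describes letters, not binding. The MEF2A and HDAC9 windows are shown because they hold the MEF2 core, and the HDAC7 window, the single one of that gene, because it holds a GATA motif upstream of the start site of the reference transcript, in each case with the motif in capitals. A GATA motif was also in 2 HDAC9 windows that hold the reference start site and are not shown. These 2 windows overlap and hold the same single GATA site, which therefore counts in both. The MEF2A window is chr15:99565734-99566033 on the plus strand, the HDAC9 window chr7:18086575-18086874 on the plus strand, and the HDAC7 window chr12:47819854-47820153 on the minus strand.
MEF2A: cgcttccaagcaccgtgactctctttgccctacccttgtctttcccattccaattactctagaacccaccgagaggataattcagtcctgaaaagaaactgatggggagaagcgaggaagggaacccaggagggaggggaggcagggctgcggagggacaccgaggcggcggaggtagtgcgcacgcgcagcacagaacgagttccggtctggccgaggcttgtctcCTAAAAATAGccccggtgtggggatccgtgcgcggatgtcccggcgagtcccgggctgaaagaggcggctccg
HDAC9: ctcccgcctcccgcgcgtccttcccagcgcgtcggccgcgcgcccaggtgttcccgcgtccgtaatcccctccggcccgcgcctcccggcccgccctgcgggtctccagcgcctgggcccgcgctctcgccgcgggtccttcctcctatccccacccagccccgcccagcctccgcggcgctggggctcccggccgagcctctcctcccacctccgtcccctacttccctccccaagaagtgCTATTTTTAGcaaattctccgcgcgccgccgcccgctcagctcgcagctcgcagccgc
HDAC7: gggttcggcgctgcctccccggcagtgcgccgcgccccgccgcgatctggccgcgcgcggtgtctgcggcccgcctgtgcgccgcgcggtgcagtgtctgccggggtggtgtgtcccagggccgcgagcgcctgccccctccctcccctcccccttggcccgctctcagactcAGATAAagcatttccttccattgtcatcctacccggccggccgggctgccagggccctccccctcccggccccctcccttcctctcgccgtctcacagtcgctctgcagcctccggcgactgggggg

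An shRNA can also act through its seed, a stretch near the 5′ end of the guide strand that pairs with 3′ UTRs of other transcripts. The 3 LDB1 hairpins of the study are shown because the one used for sequencing is not given in the sources used here, each as its LDB1 target, with the bases that pair with the seed in capitals. The target of sh-LDB1#2 is chr10:102110657-102110677 and that of sh-LDB1#3 chr10:102109971-102109991 of GRCh38, both on the minus strand and within LDB1 exons, while the target of sh-LDB1#1 was found in LDB1 transcripts and not as 1 run in the genome.
sh-LDB1#1: ggacagaggagtgTGACAATc
sh-LDB1#2: gctacttccgcagCATCTTTg
sh-LDB1#3: ggataaagacgtgGCACTTCa

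The capitals of sh-LDB1#1 occurred in a 3′ UTR of MEF2C, MEF2D and HDAC9 and of 14% of the 19958 genes with an annotated 3′ UTR. Those of sh-LDB1#2 occurred in MEF2A, MEF2C and HDAC9 and in 24.6% of genes, and those of sh-LDB1#3 in MEF2A, HDAC7 and HDAC9 and in 12.6% of genes. HDAC4 and HDAC5 held none. HDAC9 was the one member with sites for all 3 hairpins, and it rose in 6T-CEM and fell in J.gamma1. The 3′ UTRs of all annotated transcripts were searched, and the longest of HDAC9, at 6357 bases, exceeded those of the other members with sites. The part of seed pairing in any change was not tested. The HDAC9 sites are shown with their surroundings, in transcript sense on the plus strand of chromosome 7, from 19001462 to 19001486 and from 18997498 to 18997522 for sh-LDB1#1, from 18996761 to 18996785 and from 18668434 to 18668458 for sh-LDB1#2, and from 19001590 to 19001614 for sh-LDB1#3.
HDAC9 sh-LDB1#1: ggcattttgTGACAATtcatagaga
HDAC9 sh-LDB1#1: tttaatatcTGACAATgcttttgaa
HDAC9 sh-LDB1#2: catccccaaCATCTTTgtgttctca
HDAC9 sh-LDB1#2: gggatagtgCATCTTTtaaaataca
HDAC9 sh-LDB1#3: agtggaatgGCACTTCcttgggtat

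The remaining genes of the pathway come from lists that were set for this report with earlier results of these data known. The lists held 68 genes. In 6T-CEM 61 could be tested, and 17 were higher and 16 lower. In J.gamma1 62 could be tested, and 20 were higher and 23 lower. The background in 6T-CEM was 15.1% higher and 16.2% lower, that in J.gamma1 was 25.0% higher and 26.5% lower, and no test of the lists against it was run. The median log2 fold change of all genes tested, beside which those of the lists stand, was 0.0027 for 6T-CEM and -0.00025 for J.gamma1.

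**Figure D4:**
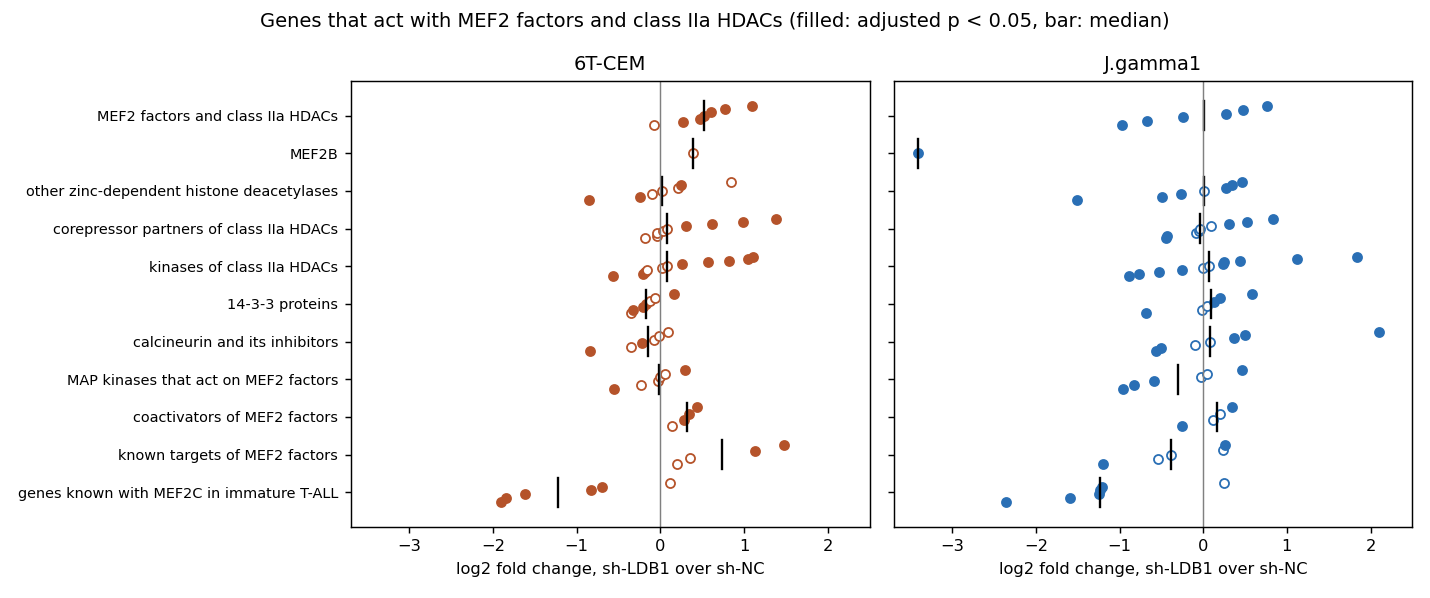
Log2 fold change of sh-LDB1 over sh-NC for each tested gene (points) of the 7 genes and of each list of partner genes (rows) in 6T-CEM (left) and J.gamma1 (right); filled points have an adjusted p under 0.05 and black bars mark medians. The points of the list of genes known with MEF2C in immature T-ALL lie left of 0 in both lines except NKX2-5, and MEF2B lies at -3.41 in J.gamma1.

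MEF2B, the fourth MEF2 gene, was near the bottom of the measurable range. In J.gamma1 it went from 86 and 57 counts in control libraries to 2 and 10 counts after knockdown (a log2 fold change of -3.41 ± 0.55, adjusted p = 0.00047). Without sh-LDB1 replicate 1 this was -2.71 and without sh-LDB1 replicate 2 it was -4.89, and the call held when any single library was left out. In 6T-CEM it held 33 and 68 counts in control libraries and 80 and 64 in knockdown libraries (0.39 ± 0.34, adjusted p = 0.42), so that the groups overlapped. MEF2B shares 76.8% of its exon bases with the read-through gene BORCS8-MEF2B on the same strand, which held between 111 and 339 counts in all libraries and did not pass the test in either line (-0.38 ± 0.16, adjusted p = 0.092 in 6T-CEM and -0.16 ± 0.40, adjusted p = 0.78 in J.gamma1). How the counting split reads between them is not given in the sources used here, so the MEF2B values are uncertain.

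Of the 7 other zinc-dependent HDACs, 1 was higher and 2 lower in 6T-CEM (median log2 fold change 0.02), and 3 were higher and 3 lower in J.gamma1 (0.01). HDAC3, the deacetylase that class IIa HDACs recruit, fell from 116 and 117 CPM to 96.5 and 100.04 CPM in 6T-CEM (-0.24 ± 0.061, adjusted p = 0.0077) and from 85.7 and 86.3 CPM to 56.1 and 65.3 CPM in J.gamma1 (-0.50 ± 0.074, adjusted p = 0.00023). The 6T-CEM call was lost without sh-NC replicate 2 or without sh-LDB1 replicate 1, with an adjusted p of at most 0.058. HDAC8 fell further, from 21.8 and 20.03 CPM to 11.5 and 11.7 CPM in 6T-CEM (-0.85 ± 0.13, adjusted p = 0.00012) and from 25.7 and 25.6 CPM to 8.54 and 9.40 CPM in J.gamma1 (-1.51 ± 0.11, adjusted p = 1.1e-06).

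Of 9 corepressor partners, 4 were higher and none lower in 6T-CEM (median 0.08), and 3 were higher and 2 lower in J.gamma1 (-0.04). BCL6, a repressor that binds class IIa HDACs, rose from 30 and 26 to 88 and 72 counts in 6T-CEM (1.39 ± 0.31, adjusted p = 0.0037). In J.gamma1 it fell from 507 and 456 to 280 and 367 counts (-0.43 ± 0.14, adjusted p = 0.024), a call that was lost without sh-NC replicate 1 or sh-LDB1 replicate 1, with an adjusted p of at most 0.16. Like HDAC5, HDAC9 and the kinase CAMK4 (below), BCL6 was lower in 6T-CEM than in J.gamma1 before knockdown. JUN (below) was also lower in 6T-CEM, with means of 8.33 and 47.8 CPM in control libraries, and rose in both lines.

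Of 13 kinases of class IIa HDACs, 5 were higher and 3 lower in 6T-CEM (median 0.08), and 5 were higher and 4 lower in J.gamma1 (0.07), with 11 tested in each line. SIK1, a salt-inducible kinase, rose in both lines, from 48 and 58 to 106 and 131 counts in 6T-CEM (1.04 ± 0.26, adjusted p = 0.0065) and from 41 and 38 to 122 and 135 counts in J.gamma1 (1.84 ± 0.25, adjusted p = 0.00012). The 6T-CEM call ended without sh-NC replicate 1 or sh-LDB1 replicate 2, with an adjusted p of at most 0.086. The calcium-dependent kinase CAMK4 rose in 6T-CEM from 31.01 and 28.8 CPM to 64.5 and 63.9 CPM (1.11 ± 0.079, adjusted p = 1.1e-07) and fell in J.gamma1 from 238 and 219 CPM to 199 and 181 CPM (-0.26 ± 0.062, adjusted p = 0.0055). CAMK1D went the opposite way, with a fall from 83.9 and 85.6 CPM to 70.4 and 75.4 CPM in 6T-CEM (-0.21 ± 0.069, adjusted p = 0.028) and a rise from 13.4 and 14.4 CPM to 33.2 and 26.8 CPM in J.gamma1 (1.12 ± 0.12, adjusted p = 2.0e-05). The CAMK1D fall in 6T-CEM was lost without sh-NC replicate 1, sh-NC replicate 2 or sh-LDB1 replicate 1, with an adjusted p of at most 0.18.

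Of the 7 14-3-3 genes, 1 was higher and 3 lower in 6T-CEM (median -0.17), and 3 of 6 tested were higher and 1 lower in J.gamma1 (0.09). Of 7 genes for calcineurin and its inhibitors, none was higher and 2 were lower of 6 tested in 6T-CEM (-0.15), and 3 were higher and 2 lower in J.gamma1 (0.08). RCAN2, a calcineurin inhibitor, held 2 and 6 counts in J.gamma1 control libraries and 9 and 23 in knockdown libraries (2.1 ± 0.78, adjusted p = 0.043), a call lost without sh-NC replicate 1, sh-LDB1 replicate 1 or sh-LDB1 replicate 2 (adjusted p of at most 0.44). Of 6 MAP kinases that act on MEF2 factors, 1 was higher and 1 lower in 6T-CEM (-0.01), and 1 was higher and 3 lower in J.gamma1 (-0.31). Of 4 coactivators, 3 were higher and none lower in 6T-CEM (0.31), and 1 was higher and 1 lower in J.gamma1 (0.16).

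Of 6 known targets of MEF2 factors, 4 could be tested in 6T-CEM, with 2 higher and none lower (median 0.74), whereas J.gamma1 allowed a test of 5, 1 of them higher and 1 lower (-0.39). NR4A1, the orphan receptor that HDAC7 represses in thymocytes, rose in 6T-CEM from 23 and 26 to 64 and 84 counts (1.47 ± 0.33, adjusted p = 0.0037), a call lost without sh-LDB1 replicate 2 (adjusted p = 0.057). In J.gamma1 it held 212 and 183 counts in control libraries and 206 and 215 in knockdown libraries, where the groups overlapped (0.24 ± 0.17, adjusted p = 0.27). JUN, a subunit of the AP-1 factor, rose from 8.69 and 7.97 CPM to 18.5 and 17.8 CPM in 6T-CEM (1.13 ± 0.14, adjusted p = 2.2e-05) and from 48.7 and 46.9 CPM to 55.0 and 59.3 CPM in J.gamma1 (0.26 ± 0.071, adjusted p = 0.0098), the latter call lost without sh-LDB1 replicate 2 (adjusted p = 0.067). KLF2, a factor of T-cell quiescence, fell in J.gamma1 from 19.5 and 19.96 CPM to 7.71 and 9.47 CPM (-1.19 ± 0.13, adjusted p = 2.5e-05), and in 6T-CEM its 29 and 42 counts in control libraries overlapped the 65 and 34 after knockdown (0.36 ± 0.38, adjusted p = 0.53). KLF4, a relative of KLF2 named here after its values were seen, held 0 counts in both control libraries of 6T-CEM and 4 and 8 with sh-LDB1, too few to be tested in that line. In J.gamma1 its control libraries held 46 and 38 counts and the knockdown libraries 28 and 30 (-0.39 ± 0.36, adjusted p = 0.40).

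Of the 8 genes known with MEF2C in immature T-ALL, none was higher and 5 of 6 tested were lower in each line (medians -1.22 and -1.24). The 6 were not the same genes, since SPI1 and LMO2 were tested in 6T-CEM only and KIT and FLT3 in J.gamma1 only. Some of the list are also tied to LDB1 itself. The paper cites mouse work that places Hhex and Lyl1 in Ldb1/Lmo2 complexes, and work in which such complexes raise Lmo2 and Lyl1 expression. Any part of MEF2C in these falls was not tested. LYL1, a helix-loop-helix factor that binds in LMO2 and LDB1 complexes, fell from 45.5 and 44.7 CPM to 12.2 and 11.7 CPM in 6T-CEM (-1.91 ± 0.096, adjusted p = 4.0e-09) and from 8.91 and 7.35 CPM to 1.39 and 1.76 CPM in J.gamma1 (-2.35 ± 0.22, adjusted p = 9.0e-06). HHEX, a homeobox gene of early progenitors, fell from 84.2 and 80.3 CPM to 28.2 and 25.1 CPM in 6T-CEM (-1.62 ± 0.081, adjusted p = 3.8e-09) and from 132 and 120 to 45 and 52 counts in J.gamma1 (-1.23 ± 0.25, adjusted p = 0.0017). SPI1, a myeloid and early thymic factor, held 33 and 47 counts in 6T-CEM with sh-NC and 12 in each sh-LDB1 library (-1.84 ± 0.45, adjusted p = 0.0062), a call lost without sh-NC replicate 2 (adjusted p = 0.091), and 0 counts in J.gamma1. BCL2, an inhibitor of apoptosis, fell in both lines, from 44.05 and 51.6 CPM to 28.6 and 25.2 CPM in 6T-CEM (-0.83 ± 0.099, adjusted p = 2.3e-05) and from 54.6 and 52.1 CPM to 17.6 and 17.7 CPM in J.gamma1 (-1.59 ± 0.078, adjusted p = 6.4e-08). NKX2-5, named here after its values were seen, was at 301 and 290 CPM in 6T-CEM with sh-NC and 303 and 336 CPM with sh-LDB1 (0.12 ± 0.060, adjusted p = 0.16, and 0.19, adjusted p = 0.040, without sh-LDB1 replicate 1), and at between 2.17 and 2.89 CPM in J.gamma1 (0.25 ± 0.26, adjusted p = 0.44).

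The genes most like MEF2C and HDAC9 over the 4 group means were sought among 12552 protein-coding genes with at least 1 CPM in a group, as the smallest Euclidean distance between log2(CPM + 0.5) values centred on each gene's mean. For MEF2C they were DEPDC1 (distance 0.59), LIN28B (0.68) and CD44 (0.72). DEPDC1 went from 85.5 to 154 CPM in 6T-CEM and was at 0 and 0.0848 CPM in J.gamma1, LIN28B from 227 to 205 CPM and was at 0, and CD44 from 223 to 204 CPM and was at 0.221 and 0.592 CPM. For HDAC9 they were WNT2B (0.28), CDYL2 (0.30) and NRP1 (0.30). CDYL2, for example, was at 0.644 and 1.49 CPM in 6T-CEM with sh-NC and sh-LDB1 and at 9.38 and 6.20 CPM in J.gamma1. The distance rests on 4 points.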

How the data were processed

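The libraries of 6T-CEM and J.gamma1, each line with sh-NC or sh-LDB1, form 4 groups of 2 by their labels. Reads were aligned by the authors with HISAT2 2.2.0 (hg38) and quantified with StringTie. The authors deposited 1 table of whole-number counts per gene for each cell line, without normalization. The annotation release, the use of strand and the treatment of reads that match several genes are not given in the sources used here. Library totals ran from 26160492 to 30604977 counts. Within a group the 2 libraries correlated on the log2 scale at a Pearson r of 0.986 to 0.987 and differed by more than sampling noise (chi-square per degree of freedom between 7.04 and 11.7). Estimated biological variation came to a coefficient of 9.68% (6T-CEM) and 9.16% (J.gamma1).

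The members and the lists were chosen with earlier results of these data known. Gene names, exons and 3′ UTRs came from GENCODE release 44 on GRCh38, which named 56105 of the 64252 genes, and promoters from RefSeq. Each line was fitted by itself with edgeR 4.0.16 in R 4.3.3 (quasi-likelihood test, robust, TMM, filterByExpr), with Benjamini-Hochberg adjustment over all genes tested and a call at an adjusted p under 0.05, and calls with a log2 fold change beyond 1 are given too. The difference between the lines was the interaction in 1 fit of all 8 libraries. CPM values used TMM over all 8 libraries. Intervals and floors cover counting error only. The genes named are the 7 members, LDB1, genes whose exons overlap those of a member or of MEF2B, the 4 largest changes past both thresholds in each list, NR4A1, MEF2B and HDAC3, and the genes most like MEF2C and HDAC9. NKX2-5, KLF4, LMO2, KIT and FLT3 are named outside this rule, after their values were seen. So are the markers CD3D, CD3E, CD5, LCK, PTPRC, CD79A, CD79B, MS4A1, EBF1, CEBPA, MPO, NKG7, KLRD1 and NCR1. Marker lists were T-lineage, B-lineage, myeloid, natural killer and muscle.

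On simulated counts with 200 changed genes, edgeR recovered 199 of 200 in 6T-CEM among 15736 genes (with 16 false calls), 197 in J.gamma1 among 16846 (8 false calls) and 174 of the differences among 18098 (9 false calls). The changed genes were well counted, their log2 changes were at least 1 in size, and all genes had the same spread. The recovery therefore says nothing about smaller changes, such as those of most members. Alternatives were other normalization factors, other filters, DESeq2 1.42.0, a replicate block, a fit to all 8 libraries and fits without 1 library. Replicate numbers of the labels did not pair the libraries (correlation of deviations -0.013 in 6T-CEM and -0.014 in J.gamma1).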

Additional observations from a re-analysis of the deposited data

Results flagged for a closer look

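Several genes changed differently in the 2 lines by the test of the difference itself (edgeR interaction over 8 libraries, adjusted p under 0.05, as for 24.4% of all genes tested). Among the 7 genes these were HDAC9 (-2.06 on the log2 scale, J.gamma1 minus 6T-CEM), HDAC5 (-1.44), HDAC4 (-0.33) and HDAC7 (0.28). HDAC9 and HDAC5 were higher in 6T-CEM and lower in J.gamma1 after knockdown, and HDAC4 and HDAC7 were higher in both lines.

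LDB1, the targeted gene, differed by 0.70, since it fell further in 6T-CEM, so that cell line and depth of knockdown cannot be told apart. MEF2B, at low counts and with most of its exon bases shared with BORCS8-MEF2B, differed by -3.80, by -3.11 without J.gamma1 sh-LDB1 replicate 1 and by -5.29 without J.gamma1 sh-LDB1 replicate 2. HDAC8 differed by -0.66 and BCL6 by -1.82. The kinases CAMK4 and CAMK1D differed by -1.37 and 1.33, in opposite directions. The differences were -1.23 for NR4A1, -1.55 for KLF2 and -0.87 for JUN among the known targets of MEF2 factors, and -0.76 for BCL2. The fitted difference of KLF4, another known target, was -6.01 ± 1.49 (adjusted p = 0.013), but it rests on 0 counts in both 6T-CEM control libraries, so that its size depends on the fit and is no bound. The call for NR4A1 was lost without any one of 5 libraries and that for KLF2 without 6T-CEM sh-NC replicate 1 or sh-LDB1 replicate 1, with an adjusted p of at most 0.068 and 0.061.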

How the results depend on the processing

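The numbers of members called, 6 in 6T-CEM, 6 in J.gamma1 and 4 for the difference between the lines, were the same under DESeq2's size factors, upper quartile factors, both other filters on low counts and DESeq2, and for the lines in a fit to all 8 libraries. With a replicate block they were again 6, 6 and 4, although the replicate numbers did not pair the libraries. With a log2 fold change beyond 1 as a second condition 1 member was left in 6T-CEM, 0 in J.gamma1 and 2 for the difference. Of the called genes of the lists 8 of 33 passed in 6T-CEM, with 11 of 43 for J.gamma1. Among all genes called in 6T-CEM, 440 of 2425 higher and 384 of 2598 lower ones met this condition. For J.gamma1 the counts were 1149 of 4300 and 1237 of 4570, and for the difference 562 of 2217 and 526 of 2307. Members and lists were not tested against these counts. For the members, 127 values under alternatives that kept all libraries stayed on their side of the threshold in the same direction, and of 100 values without 1 library 15 lost the call and none reversed. Without 1 library between 4 and 5 members were called in 6T-CEM, between 5 and 6 in J.gamma1 and between 2 and 3 for the difference. The same alternatives were run for LDB1 and the named genes of the lists after their values had been seen, and 22 of 260 values without 1 library and 10 of 325 others lost the call, and 2 without 1 library gained it. The 10 concern CAMK1D (6T-CEM), BCL6 and RCAN2 (both J.gamma1). The cause was not tested. MEF2B in J.gamma1, RCAN2 and MEF2C in J.gamma1 are limited by depth, at 10 or fewer counts in a library.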

Other observations

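The summed level of the 3 MEF2 factors, in CPM per kb of exon, was 30.5 ± 1.5 in 6T-CEM with sh-NC and 36.2 ± 0.90 with sh-LDB1, and 17.3 ± 0.73 and 18.4 ± 0.28 in J.gamma1 (SD, n = 2 libraries). MEF2C made up 38.7% and 38.3% of this sum in control libraries of 6T-CEM and 46.9% and 45.4% with sh-LDB1. In J.gamma1 MEF2D passed MEF2A on this scale, from 42.3% and 40.4% of the sum with sh-NC to 51.5% and 56.1% with sh-LDB1. Per kb of the longest transcript the sh-LDB1 means were close, at 10.6 for MEF2D and 10.4 for MEF2A. In CPM the sh-LDB1 libraries of the 2 genes overlapped. The summed level of the 4 class IIa HDACs was 15.4 ± 0.43 and 22.3 ± 0.049 in 6T-CEM and 18.7 ± 0.38 and 21.8 ± 0.42 in J.gamma1. These sums were formed after the values were seen, and no test was run on them.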
